A study of Mus musculus with 78 samples.

Results

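Brains of mice that lack doublecortin were compared with wild-type brains at embryonic day 14 (E14) and on the day of birth (P0), to ask which genes differ at each age and whether the effects at the 2 ages resemble each other. The comparison uses 12 of the 78 Affymetrix arrays of the series, 1 array per RNA sample of brain. They are 3 DCXko/Y and 3 WTMixB arrays at E14, and 3 DCXko/Y and 3 WTMixB arrays at P0, chosen by their genotype and age labels. DCXko/Y stands for a knockout allele of the X-linked Dcx gene in a male, and WTMixB for wild type on mixed background B. The labels call the arrays of a group biological replicates and do not say whether brains came from shared litters. The background of the Dcx colony, the cells in which Dcx is absent and the deleted part of the gene are not given in the sources used here. A gene is said to be called where it passed the test in a fit of all groups of its age, unless a fit of the 6 DCXko/Y and WTMixB arrays of that age alone is named. Values are log2 expression values, so a difference of 1 is a 2-fold change. Unless another group is named, every difference is DCXko/Y minus WTMixB ± its standard error with n = 3 arrays in each group. That error comes from the fit of all groups, so it carries the spread of the other groups too.

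Doublecortin is a microtubule-associated protein of migrating and differentiating neurons. It binds between the protofilaments of microtubules, stabilizes them and bundles them in the leading process and the growing axon. In humans its loss causes lissencephaly in males and a band of misplaced neurons under the cortex in heterozygous females, whereas in mice the paralog Dclk1 covers much of its function in the cortex and the hippocampus is the most affected region. Dcx is switched on as neurons leave the ventricular zone, so it serves as a marker of newborn neurons.

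The arrays hold the neuronal RNA that a brain label implies: the neuronal tubulin Tubb3 lay between 11.96 and 12.26, Map2 between 11.80 and 12.39, Stmn2 between 12.73 and 13.30 and Snap25 between 10.06 and 11.46 on the 12 arrays. No array was a copy of another. Xist, which is transcribed from the inactive X chromosome of females, was high on 1 of the 6 arrays at E14, WTMixB replicate 1 (11.99), and on 1 of the 6 at P0, the library labelled DCXko/Y replicate 2 (11.27). The Y-linked gene Eif2s3y was at 3.87 on that P0 array and at 3.69 on that E14 array, against 8.72 to 9.22 on the other 10 arrays. The P0 library thus goes against the Y of its ko/Y label, although Dcx was lost there. Counts without each of these arrays are given with the results. As an index of RNA degradation, the 3′ minus the 5′ beta-actin control value lay between 0.106 and 0.167 in DCXko/Y and between 0.206 and 0.223 in WTMixB at E14, without overlap. At P0 it lay between 0.274 and 0.370 in DCXko/Y and between 0.277 and 0.358 in WTMixB.

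Dcx was the gene with the largest difference at both ages. At E14 it was at 4.40, 4.87 and 4.45 in DCXko/Y brains, against 12.01, 12.12 and 12.07 in WTMixB brains. At P0 it was at 4.22, 4.52 and 4.16 in DCXko/Y, against 11.94, 12.07 and 12.09 in WTMixB. The knockout arrays lay near the floor of the platform and far below all other arrays, with differences of -7.49 ± 0.11 at E14 (adjusted p = 1.45e-20) and -7.73 ± 0.17 at P0 (adjusted p = 9.83e-23, limma with Benjamini-Hochberg adjustment over all genes tested). The other 3 of its 4 probe sets were lost too, by -4.82 to -7.15 at E14 and by -4.76 to -7.46 at P0.

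The paralogs of Dcx were not called in the fit of all groups. Dclk1, a kinase with tandem doublecortin domains, was at 10.32, 10.49 and 10.41 in DCXko/Y and at 10.63, 10.73 and 10.59 in WTMixB at E14, a difference of -0.24 ± 0.15 (adjusted p = 0.665). At P0 it was at 11.18, 11.49 and 11.39 in DCXko/Y and at 11.15, 11.15 and 11.20 in WTMixB, a difference of 0.18 ± 0.08 (adjusted p = 0.695). In the fit of the 6 arrays of E14 alone Dclk1 passed as lower (adjusted p = 0.0305 by limma), while against WTMixA it differed by 0.003032. The Dclk1 arrays thus lay below those of WTMixB at E14 and overlapped with them at P0. Of the 9 Dclk1 probe sets 8 differed by -0.24 to 0.30 at E14, and the remaining probe set was lower at both ages, by -0.79 ± 0.27 and -0.79 ± 0.42, without passing in the fit of all groups. Dclk2, a related kinase, differed by -0.19 ± 0.11 at E14 and by -0.0022 ± 0.11 at P0, and Dclk3 was below the level for testing at E14 and differed by 0.15 ± 0.16 at P0.

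The 3 other genes mutated in the series did not differ in DCXko/Y by the test either. Pafah1b1, which encodes the dynein regulator LIS1, differed by -0.09 ± 0.10 at E14 and 0.04 ± 0.11 at P0. Ndel1, whose product binds LIS1 and dynein, differed by 0.06 ± 0.07 and 0.11 ± 0.09. Ywhae, which encodes 14-3-3 epsilon, differed by 0.05 ± 0.43 and -0.05 ± 0.06, where the error at E14 carries the spread of the 14-3-3 epsilon arrays, 9.97 to 12.92. Of the 10 genes nearest to Dcx on each side on the X chromosome, 19 were tested at each age. They differed by -0.25 to 0.47 at E14 and by -0.24 to 0.53 at P0, and none was called in the fit of all groups. In the fit of the 6 arrays of E14, Apex2 (0.39 ± 0.22) and Alas2 (0.47 ± 0.24) passed as higher, beside 5.22% of all genes. Errors here are from the fit of all groups.

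At E14, 12 of 11744 genes tested passed at adjusted p under 0.05 (0.102%), 6 of them higher in DCXko/Y (0.0511%) and 6 lower (0.0511%). The genes that rose were H2-D1 and H2-K1, which encode class I histocompatibility antigens, the ribosomal protein gene Rps6, the metabolic enzyme gene Glo1 and the cilium-related genes Rabl2 and Rpgrip1. Those that fell were Dcx, the long noncoding RNA Rmst, the pseudogene Pisd-ps3, the zinc finger gene Zfp994, the vesicle tethering gene Vps52 and the dynein light chain gene Dynlt1f. In all 12 the 3 DCXko/Y arrays did not overlap with the 3 WTMixB arrays, as was also so, upward, for 23.6% of all genes tested at E14 and, downward, for 10.8%. At an unadjusted p under 0.05, 792 genes were higher (6.74%) and 274 lower (2.33%).

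H2-D1 and H2-K1 encode heavy chains of class I molecules, which display peptides to cytotoxic T cells and in the developing brain are also found on neurons. H2-D1 was at 9.01, 8.97 and 9.25 in DCXko/Y, against 7.82, 7.89 and 7.93 in WTMixB, a difference of 1.20 ± 0.16 or 2.29-fold (adjusted p = 0.00164). H2-K1 was at 8.27, 8.17 and 8.50 in DCXko/Y, against 7.25, 7.42 and 7.06 in WTMixB, a difference of 1.07 ± 0.15 or 2.10-fold (adjusted p = 0.00164). Every knockout array lay above every wild-type array, and of the 21 arrays of all other groups at E14, 20 lay below all 3 DCXko/Y arrays in each of these genes. The genes are close relatives, and the probe sets used for both are of a class whose probes also match related sequences, so the signals of the 2 genes may not be fully separate. H2-D1 has 9 probe sets, of which the others differed by -0.12 to 1.05, and the other 3 of H2-K1 differed by -0.03 to 0.96. Of the other class I pathway genes tested, Tapbp, which loads peptides, differed by 0.17 and the light chain B2m by 0.15, neither past the test, and the interferon response list had a median of -0.03 over 10 genes with none called. At P0 H2-D1 was at 8.29 to 9.26 in DCXko/Y against 8.33 to 8.43 in WTMixB, and H2-K1 at 7.86 to 8.86 against 7.60 to 7.96, so that groups overlapped in both.

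Because these were the related genes that rose together, the 250 bases before their starts are shown from RefSeq (GRCm38.p6), for H2-D1 chr17:35262844-35263093 on the plus strand and for H2-K1 chr17:34000348-34000597 on the minus strand. Capitals mark GGGATTCC, the letters of the kappaB-like element of class I promoters, then TTTCACTT, within the interferon response element, and TGACGC, within the cyclic AMP response element-like box.
H2-D1: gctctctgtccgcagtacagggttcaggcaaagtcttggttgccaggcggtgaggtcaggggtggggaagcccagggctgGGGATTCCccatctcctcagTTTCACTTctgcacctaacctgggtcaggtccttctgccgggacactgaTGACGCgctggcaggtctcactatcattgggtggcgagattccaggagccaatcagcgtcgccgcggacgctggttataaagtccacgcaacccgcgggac
H2-K1: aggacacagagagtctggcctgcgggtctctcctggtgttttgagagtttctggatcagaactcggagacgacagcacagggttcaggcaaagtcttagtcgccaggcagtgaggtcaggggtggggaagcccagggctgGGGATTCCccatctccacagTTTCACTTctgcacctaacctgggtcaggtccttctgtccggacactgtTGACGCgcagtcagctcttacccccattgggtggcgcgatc
Both windows hold the 3 motifs in the same order and on the same strand, beginning 170, 150 and 101 bases before the start of H2-D1 and 110, 90 and 41 bases before the start of H2-K1, and share a run of 47 bases around the first. Searched on both strands, GGGATTCC occurs in 0.889% of all 32851 promoter windows of this length, TTTCACTT in 1.36% and TGACGC in 6.12%, and no motif found overlapped with another. These matches describe the sequence and do not show that a factor is bound.

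Rabl2 encodes a small GTPase of cilia, and Rpgrip1 a protein of the connecting cilium of photoreceptors. Rabl2 was at 8.36, 8.25 and 8.33 in DCXko/Y and at 7.49, 7.62 and 7.53 in WTMixB (0.77 ± 0.11, adjusted p = 0.00164), above all 21 other arrays of E14. Rpgrip1 was at 7.66, 7.67 and 7.51 in DCXko/Y and at 6.77, 7.04 and 6.94 in WTMixB (0.70 ± 0.11, adjusted p = 0.00871), while nudelko/+, labelled Ndel ko/+, held 10.32 to 10.44. Rps6, a protein of the small ribosomal subunit, was at 9.10, 8.70 and 9.05 in DCXko/Y against 7.77, 7.86 and 7.91 in WTMixB (1.10 ± 0.21, adjusted p = 0.0365). Glo1, the glyoxalase that detoxifies methylglyoxal, was at 11.09, 11.02 and 11.04 in DCXko/Y against 10.24, 10.21 and 10.27 in WTMixB (0.81 ± 0.14, adjusted p = 0.0222), and all 4 of its probe sets were higher, by 0.55 to 1.36. The WTMixB arrays were the lowest of E14 for Glo1, with all other groups between 10.44 and 11.34. For Rps6 both Ndel1 groups were as low as WTMixB, at 7.83 to 8.002, whereas WTMixA, wild type on mixed background A, held 8.69 to 8.99.

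Among the genes that fell, Rmst is a long noncoding RNA of neural progenitors that binds SOX2 in human cells. It was at 4.92, 4.72 and 4.99 in DCXko/Y, against 8.12, 7.88 and 8.04 in WTMixB, a difference of -3.14 ± 0.44 (adjusted p = 0.00164). On this probe set the DCXko/Y arrays lay below the level for testing, 5.253, so its difference may be limited by the floor. No fold is given. Its level was high in nudelko/+ as well (7.97 to 8.90) and in some WTMixA brains (4.42 to 7.32), and between 4.34 and 4.98 in the other 4 groups of E14, so WTMixB was on the high side. A second Rmst probe set lay above that level in both groups and differed far less. It was at 6.61, 6.20 and 6.51 in DCXko/Y and at 6.76, 6.68 and 6.94 in WTMixB, a difference of -0.36 ± 0.33. The size of the Rmst change thus depended on the probe set. Pisd-ps3, a pseudogene of a phospholipid enzyme, was at 9.19, 9.41 and 9.36 in DCXko/Y against 11.14, 11.06 and 10.86 in WTMixB (-1.70 ± 0.23, adjusted p = 0.00164). All 5 of its probe sets were lower in DCXko/Y, by -1.36 to -2.35, and its signal cannot be separated from that of related copies.

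The remaining falls were smaller. Vps52, a subunit of the complex that tethers vesicles at the Golgi, was at 6.66, 6.54 and 6.69 in DCXko/Y and 7.20, 7.30 and 7.39 in WTMixB (-0.67 ± 0.11, adjusted p = 0.0116). A second Vps52 probe set at a similar level differed by -0.06 ± 0.12. Dynlt1f, 1 copy of a multicopy family of dynein light chains whose probes also match other copies, was at 7.85, 7.68 and 7.42 in DCXko/Y and 8.24, 8.45 and 8.23 in WTMixB (-0.66 ± 0.12, adjusted p = 0.0302). Zfp994 was at 5.32, 4.96 and 5.16 in DCXko/Y and 5.83, 5.85 and 5.96 in WTMixB (-0.73 ± 0.12, adjusted p = 0.00871). In the Ndel1 group nudelcko/ko Zfp994 differed from the same WTMixB arrays by -0.88 ± 0.12 and was called. Of the 12 genes called, 6 lie on chromosome 17 (H2-D1, H2-K1, Glo1, Vps52, Zfp994 and Dynlt1f), which holds 544 of the 11744 genes tested. This count was made after the calls were seen. In the fit of the 6 arrays alone 43 of those 544 genes were called, beside 882 of all 11744. Strain of origin was not tested.

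**Figure D1:**
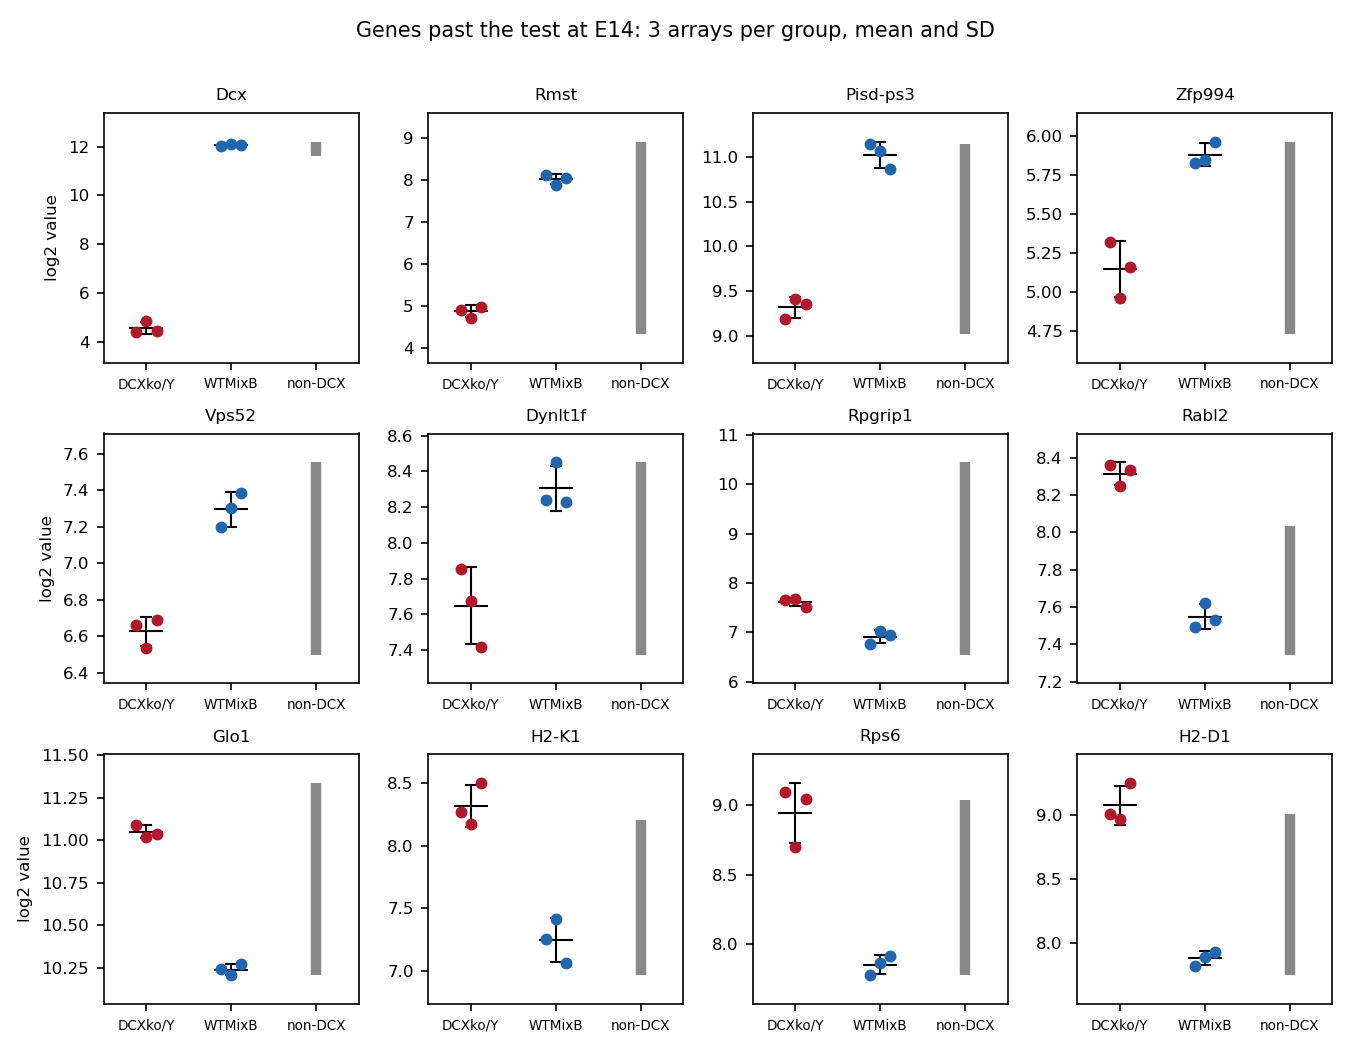
Level of the 12 genes called at E14, in log2 units, on the 3 DCXko/Y arrays (red, left) and the 3 WTMixB arrays (blue), with the mean and SD as black lines. The grey bar spans the lowest to the highest of the 21 arrays of E14 that are not DCXko/Y, WTMixB included. H2-D1, H2-K1 and Rabl2 stand above or at the top of the grey bar. The DCXko/Y arrays lie inside it for Rmst, Glo1, Rpgrip1, Pisd-ps3, Zfp994, Vps52 and Dynlt1f.

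Against WTMixA in place of WTMixB, 11 genes were called at E14, 5 of them the same: Dcx, H2-D1 (1.16), H2-K1 (1.03), Rabl2 (0.88) and Rpgrip1 (0.67). A contrast against both wild types together called the same 5 genes. Rps6 differed from WTMixA by 0.15, Glo1 by -0.01, Zfp994 by 0.08 and Rmst by -0.69, and none of these passed. When each of the 6 arrays was left out in turn, Dcx, H2-D1, H2-K1, Rabl2, Rmst and Pisd-ps3 passed in all 6 runs, Zfp994 in 4, Vps52 in 3, Rpgrip1 in 2, Rps6 and Dynlt1f in 1 and Glo1 in none. Without WTMixB replicate 1, the array with high Xist, 8 genes were called.

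The number of calls at E14 depended on which arrays estimated the spread. The median within-group SD was 0.0726 in DCXko/Y and 0.0650 in WTMixB, against 0.119 to 0.208 in Lis1ko/+, Lis1cko/ko, the 14-3-3 epsilon group and WTMixA. In a fit of the 6 arrays alone, 882 genes were called, 613 higher (5.22%) and 269 lower (2.29%), among them all 12 genes above. That number ranged from 57 to 983 when an array was left out, with 135 without WTMixB replicate 1, and was 57 without WTMixB replicate 2. The genes called in that fit and 2-fold or more apart include Celsr1, a cadherin of planar cell polarity chosen after its values were seen, which was at 5.68, 6.32 and 5.99 in DCXko/Y against 7.55, 7.46 and 7.54 in WTMixB (-1.52 ± 0.34, adjusted p = 0.118 in the fit of all groups).

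Gene lists gave small shifts at E14, beside a median over all genes of 0.03. Of 36 cell cycle genes tested, 35 were higher in DCXko/Y with a median of 0.22, none was called, and 2 had an unadjusted p under 0.05 as higher, beside 6.74% of all genes. These were Rrm1, a subunit of ribonucleotide reductase (0.38 ± 0.14), and cyclin Ccnd1 (0.35 ± 0.13). On 27 of the 36 every knockout array lay above every wild-type array, beside 23.6% of all genes, and in the fit of the 6 arrays 14 were called higher, beside 5.22% of all genes. The list's mean was 9.70, 9.50 and 9.51 on the DCXko/Y arrays, against 9.37, 9.29 and 9.37 on the WTMixB arrays, and 9.57 to 9.88 in WTMixA, so DCXko/Y was above WTMixB and overlapped with WTMixA. Left out in turn, the arrays gave a list median of 0.16 to 0.25.

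Lists of synapses and of several classes of differentiated neurons had medians below that of all genes. Of 21 synapse genes tested 19 were lower in DCXko/Y with a median of -0.14, none called, and 2 had an unadjusted p under 0.05, beside 2.33% of all genes, the scaffold gene Shank3 (-0.42 ± 0.16) and the glutamate receptor gene Gria2 (-0.38 ± 0.16). The list's mean was 8.23, 8.40 and 8.38 in DCXko/Y against 8.49, 8.52 and 8.49 in WTMixB, and the median was -0.09 without DCXko/Y replicate 1, with no member then under 0.05. Upper-layer cortical neuron genes had a median of -0.20 over 12 genes, 11 of them lower, with the transcription cofactor gene Lmo4 at -0.21 ± 0.08. GABAergic neuron genes had a median of -0.14 over 17, deep-layer genes -0.11 over 12 and hippocampal genes -0.14 over 13, and none of their members was called in the fit of all groups. In the fit of the 6 arrays 3 of 21 synapse and 3 of 17 GABAergic genes passed as lower, beside 2.29% of all genes. So did 1 of 12 deep-layer, 1 of 12 upper-layer and 1 of 13 hippocampal genes. As higher, 1 of 13 hippocampal genes passed, beside 5.22% of all genes. Without DCXko/Y replicate 1 the deep-layer median was 0.0032, with 6 genes higher and 6 lower, and the hippocampal median 0.0136, with 7 higher and 6 lower, so both shifts depended on that array. The deep-layer median was -0.21 without DCXko/Y replicate 2, and the hippocampal median -0.07 without WTMixB replicate 2 and -0.02 without WTMixB replicate 3. Other neuronal lists had higher medians: 8 of 10 Cajal-Retzius genes were higher with a median of 0.22 (0.16 to 0.34 with an array left out, 0.34 without DCXko/Y replicate 2), and 11 of 19 genes of intermediate progenitors and newborn neurons with a median of 0.04 (0.0087 to 0.16). In whole brain, fewer cells of a type and less RNA per cell cannot be told apart.

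Markers of other cells also differed at E14. The red blood cell list averaged 8.52, 8.04 and 7.996 in DCXko/Y against 7.40, 7.25 and 7.48 in WTMixB over 6 genes, all 6 higher, with the embryonic globin genes Hba-x (1.56 ± 0.58) and Hbb-y (1.52 ± 0.71) not called in the fit of all groups. In the fit of the 6 arrays 4 of these 6 genes passed as higher, Hba-x and Hbb-y among them, beside 5.22% of all genes. Of 11 microglial genes 9 were higher with a median of 0.10, which ran from 0.04 without DCXko/Y replicate 2 to 0.17 without WTMixB replicate 1, and of 18 endothelial and mural genes 13 were higher with a median of 0.13. In the fit of the 6 arrays 1 of the 11 microglial and 3 of the 18 endothelial and mural genes passed as higher. The list of midbrain, hindbrain and spinal cord had a median of 0.21 over 12 genes, 11 of them higher, but of 0.0135 without DCXko/Y replicate 1, with 6 of 11 higher, so that shift depended on 1 array. It was 0.34 without DCXko/Y replicate 2 and 0.14 without WTMixB replicate 2. No gene of that list passed in the fit of the 6 arrays. The part of these cells and regions, and of the RNA index given above, in the differences at E14 was not tested.

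At P0, 4 of 11780 genes passed (0.0340%), 1 higher (0.00849%) and 3 lower (0.0255%). Besides Dcx these were Vwf and Cldn5, genes of blood vessel endothelium that fell, and Palm2, a gene of the paralemmin family that rose. At an unadjusted p under 0.05, 481 genes were higher (4.08%) and 329 lower (2.79%). For 9.30% of the genes all 3 DCXko/Y arrays lay above all 3 WTMixB arrays, and for 6.06% below.

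Vwf encodes von Willebrand factor, a clotting glycoprotein of endothelial cells. It was at 5.88, 5.35 and 5.09 in DCXko/Y, against 6.40, 6.995 and 6.82 in WTMixB, a difference of -1.30 ± 0.21 (adjusted p = 0.0117). Cldn5, the main tight junction claudin of the blood-brain barrier, was at 8.77, 8.90 and 8.70 in DCXko/Y, against 9.35, 9.23 and 9.39 in WTMixB, a difference of -0.54 ± 0.10 (adjusted p = 0.0315). Palm2 was at 7.80, 8.26 and 8.50 in DCXko/Y, against 6.66, 6.81 and 6.70 in WTMixB, a difference of 1.46 ± 0.27 (adjusted p = 0.0386). Groups did not overlap in any of the 3 genes, but their calls were less secure than that of Dcx: with each array left out in turn Vwf and Cldn5 passed in 2 of 6 runs each and Palm2 in 1. Without the library labelled DCXko/Y replicate 2, Cldn5 passed (adjusted p = 0.0325), Vwf did not (0.0581) and Palm2 did not (0.107), and 4 genes were called in all. In a fit of the 6 P0 arrays alone Vwf and Cldn5 did not pass (adjusted p = 0.185 for each by limma), whereas Dcx and Palm2 did. With a term for high Xist Palm2 did not pass (adjusted p = 0.0791), and Vwf and Cldn5 did.

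The genes next in order of p, which were not called, included more of the vessel wall. Col4a2 was at 8.01, 7.91 and 7.53 in DCXko/Y and at 8.54, 8.44 and 8.47 in WTMixB (-0.67 ± 0.13, adjusted p = 0.0542), and Col4a1 at 9.10, 8.70 and 8.37 in DCXko/Y and 9.29, 9.44 and 9.37 in WTMixB (-0.65 ± 0.13, adjusted p = 0.0710). Both encode collagen IV chains of the basement membrane. The condensin subunit gene Ncapd2 was at 6.62, 6.22 and 5.61 in DCXko/Y against 6.84, 7.60 and 7.72 in WTMixB (-1.24 ± 0.25, adjusted p = 0.0542). Ptov1 was at 8.76, 9.57 and 9.20 in DCXko/Y against 10.06, 10.37 and 10.32 in WTMixB (-1.07 ± 0.21, adjusted p = 0.0542), whereas a second Ptov1 probe set differed by 0.25 ± 0.11 in the other direction. Slc25a15, the mitochondrial ornithine carrier, differed by 0.62 ± 0.13 and the X-linked splicing factor gene Rbmx by -0.30 ± 0.06, both with an adjusted p of 0.0746. The WTMixB mean of Slc25a15 (6.05) was the lowest of the P0 groups, with the others at 6.29 to 6.67. In a fit of every probe set the probe sets used for Col4a2, Ncapd2 and Ptov1 passed (adjusted p = 0.0470 for each by limma). That of Col4a1 did not (0.0634). Against the same WTMixB arrays, nudelko/+ differed by -0.67 in Col4a2, -0.52 in Col4a1 and -0.38 in Rbmx, all called. Ncapd2, Ptov1 and Slc25a15 were not called in nudelko/+. In nudelcko/ko Col4a2 differed by -0.28, Col4a1 by -0.13 and Rbmx by -0.05, none called.

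**Figure D2:**
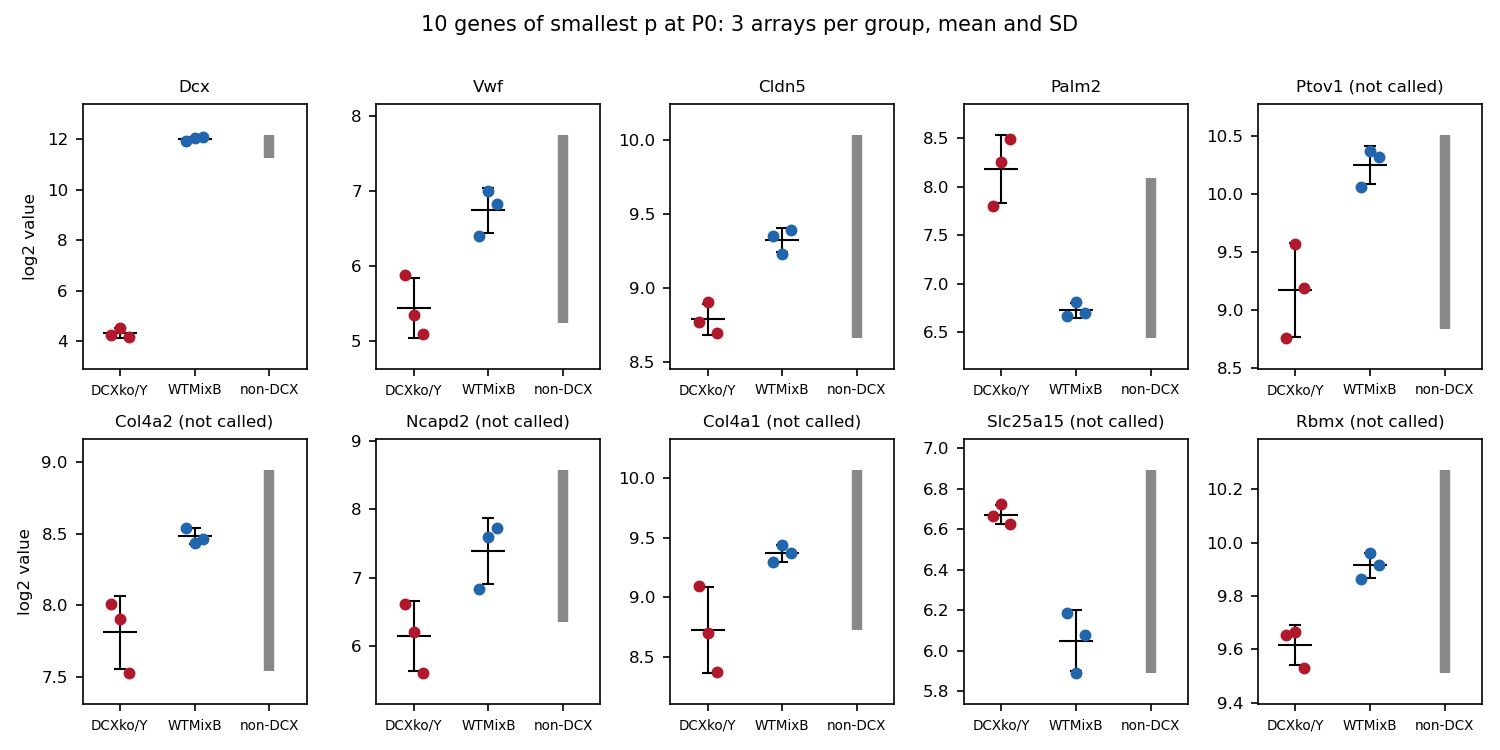
Level of the 10 genes of smallest p at P0, in log2 units, on the 3 DCXko/Y arrays (red, left) and the 3 WTMixB arrays (blue), with the mean and SD as black lines. The grey bar spans the 27 arrays of P0 that are not DCXko/Y, WTMixB included. Only Dcx, Vwf, Cldn5 and Palm2 passed the test. At least 1 DCXko/Y array lies inside the grey bar for each gene but Dcx, which lies below it.

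Over the whole list of 18 endothelial and mural genes, 17 were tested at P0 and 15 were lower, with a median of -0.26 beside 0.02 over all genes. Cldn5 was the 1 call, and the smooth muscle actin gene Acta2 (-0.62 ± 0.21), the pericyte gene Rgs5 (-0.49 ± 0.20) and the endothelial adhesion gene Esam (-0.30) had an unadjusted p under 0.05, so 4 members did, beside 2.79% of all genes. With an array left out that number was 2 to 7 and the median -0.40 to -0.18, with -0.40 and 7 without DCXko/Y replicate 1 and 2 members without DCXko/Y replicate 2 or 3. The list's mean was 7.23, 7.07 and 6.96 in DCXko/Y and 7.29, 7.39 and 7.35 in WTMixB. It was 6.94 to 7.12 in nudelko/+, 7.25 to 7.35 in nudelcko/ko, labelled Ndel ko/cko, and 7.39 to 7.73 in WTMixA. Against the same WTMixB arrays, Vwf differed by -1.32 and Cldn5 by -0.46 in nudelko/+, both called, and Cldn5 by -0.55 in nudelcko/ko, also called. These comparisons share their control arrays with that of DCXko/Y. Against nudelko/+ as the control, DCXko/Y differed by 0.02 in Vwf and -0.08 in Cldn5.

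Fibroblast and choroid plexus genes leaned the same way at P0. Of 15 genes of meninges and fibroblasts 13 were lower with a median of -0.11, with the collagen genes Col3a1 (-0.89 ± 0.25), Col1a2 (-0.69 ± 0.20) and Col1a1 (-0.65 ± 0.25) at an unadjusted p under 0.05 and not called. The list's mean was 8.29, 8.17 and 7.74 in DCXko/Y against 8.15, 8.38 and 8.32 in WTMixB, so DCXko/Y replicate 3 was the lowest array and the groups overlapped. Without that array the median was -0.03, without DCXko/Y replicate 1 it was -0.27 and without WTMixB replicate 1 it was -0.19. Of 9 choroid plexus genes 8 were lower with a median of -0.21, and their mean was 7.76, 7.69 and 7.22 in DCXko/Y against 7.54, 7.78 and 7.94 in WTMixB. That median was -0.02 without DCXko/Y replicate 3, -0.36 without WTMixB replicate 1, -0.13 without WTMixB replicate 2 and -0.10 without WTMixB replicate 3. The part of these tissues in the values of Vwf, Cldn5 and the collagen genes was not tested.

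Cell cycle genes leaned to lower values at P0. Of 33 tested 31 were lower in DCXko/Y with a median of -0.29, none was called, and 17 had an unadjusted p under 0.05 against 2.79% of all genes. Examples are Rrm1 (-0.32 ± 0.10), the topoisomerase gene Top2a (-0.44 ± 0.16), the spindle checkpoint kinase gene Bub1 (-0.53 ± 0.19) and the proliferation marker Mki67 (-0.44 ± 0.17). The list's mean was 7.43, 7.10 and 7.10 in DCXko/Y against 7.32, 7.56 and 7.55 in WTMixB, so replicate 1 of each group lay close to the other group and the groups overlapped. In turn without each array the median stayed between -0.42 and -0.24, while the genes with an unadjusted p under 0.05 numbered 5 without WTMixB replicate 2, 6 without WTMixB replicate 3 or the library labelled DCXko/Y replicate 2, 7 without DCXko/Y replicate 3 and 22 without DCXko/Y replicate 1. Radial glia genes had a median of -0.06 over 22 (-0.13 to -0.03 with an array left out, the first without DCXko/Y replicate 1), 16 of them lower, including the intermediate filament genes Vim and Nes, neither called. Of 13 hippocampal genes 8 were higher with a median of 0.06, and 1 in each direction had an unadjusted p under 0.05: Prox1, a transcription factor of dentate granule cells (-0.56 ± 0.17), and Nr3c2, the mineralocorticoid receptor gene (0.27 ± 0.12). Neither was called.

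Several lists lay above the median of all genes at P0. Of 12 microglial genes 10 were higher with a median of 0.13, with Tyrobp, a signalling adaptor, at 0.39 ± 0.14 and the complement gene C1qb at 0.42 ± 0.17, and the list's mean was 7.03, 6.98 and 6.99 in DCXko/Y against 6.69, 6.94 and 6.87 in WTMixB. Of the microglial genes 4 had an unadjusted p under 0.05 as higher, beside 4.08% of all genes. The number was 1 without WTMixB replicate 1 and 2 without DCXko/Y replicate 3, and the median was 0.23 without WTMixB replicate 2. All 14 sterol biosynthesis genes tested were higher with a median of 0.16, and all 11 immediate early genes with a median of 0.26. The sterol median was 0.31 without DCXko/Y replicate 1, with 6 members at an unadjusted p under 0.05, and 0.10 without DCXko/Y replicate 3 or WTMixB replicate 1, with none. The immediate early median stayed between 0.26 and 0.30. Of 24 synapse genes 16 were higher with a median of 0.07, and 5 had an unadjusted p under 0.05 as higher, among them the AMPA receptor gene Gria3 (0.28 ± 0.09) and the postsynaptic gene Nrgn (0.46 ± 0.17). The synapse mean was 8.75, 9.14 and 9.12 in DCXko/Y against 8.99, 8.90 and 8.90 in WTMixB, so DCXko/Y replicate 1 was the lowest of all 6. Without it 11 synapse genes had an unadjusted p under 0.05 and the median was 0.19. Without the library labelled DCXko/Y replicate 2 there were 2 and the median was 0.02, without DCXko/Y replicate 3 there was 1 and it was 0.03, and without WTMixB replicate 2 or 3 there were 2. No gene of these 4 lists was called.

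**Figure D3:**
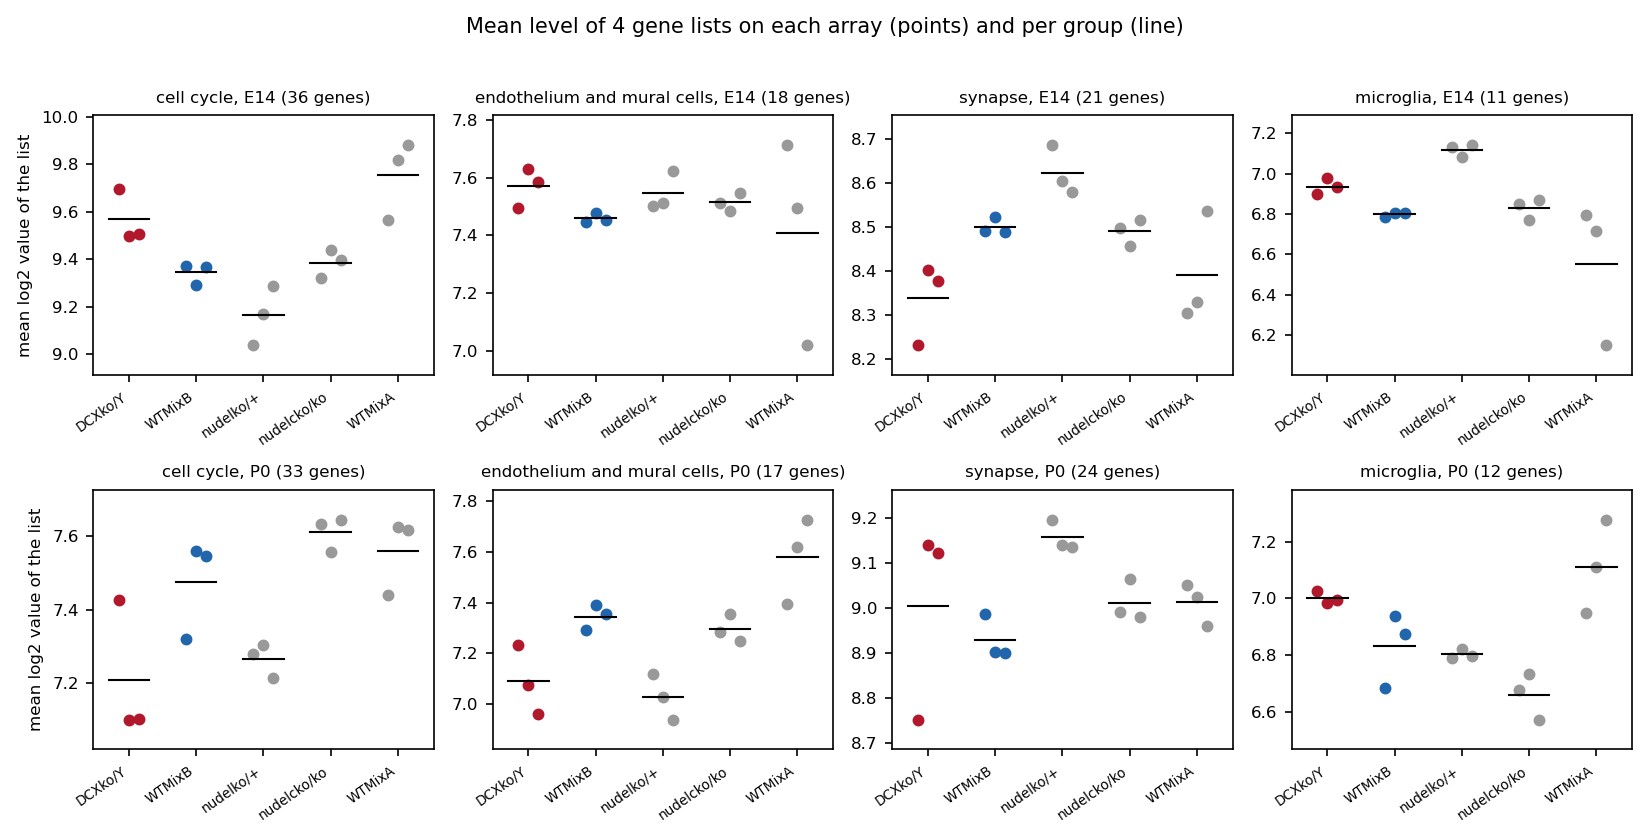
Mean log2 level of 4 gene lists on each array (points) and in each group (line) at E14 (top row) and P0 (bottom row), for DCXko/Y (red), WTMixB (blue) and, in grey, nudelko/+, nudelcko/ko and WTMixA. At E14 the cell cycle means of DCXko/Y (9.50 to 9.70) lie above those of WTMixB (9.29 to 9.37), and at P0 2 of the 3 DCXko/Y arrays lie at 7.10, below WTMixB at 7.32 to 7.56.

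Lists of microtubule, dynein, signalling, migration and guidance genes had medians between -0.10 and 0.05 at the 2 ages. Of 23 genes of the doublecortin family and other microtubule-associated proteins, 22 were tested at E14 and all at P0, and Dcx was the only call in the fit of all groups. In the fit of the 6 arrays of E14, Dclk1 and Mapt, the tau gene (-0.24), passed as lower too, so 3 of 22 did, beside 2.29% of all genes. Their medians were -0.09 and 0.03, with Mapre1, which encodes the plus-end protein EB1, at 0.21 at E14 and Map2, a dendritic microtubule protein, at 0.19 ± 0.05 at P0, neither called. Tubulin genes had medians of 0.05 over 16 genes at E14 and 0.03 over 15 at P0. The LIS1 complex and dynein list had medians of 0.02 and 0.01 over 23 genes at each age, and the list of Cdk5, a kinase that phosphorylates doublecortin, and Reelin signalling had medians of -0.10 and 0.02 over 16. Reported partners and regulators of DCX had medians of -0.04 and 0.03 over 17, neuronal migration and adhesion genes -0.01 and 0.03 over 25, and axon guidance genes -0.07 over 29 and 0.02 over 30. No member of these 6 further lists was called at either age in the fit of all groups. At E14 all 3 DCXko/Y arrays lay below all 3 WTMixB arrays in 9 of 22 doublecortin family and microtubule-associated genes, Dcx included. The same held for 7 of 16 Cdk5 and Reelin genes and 6 of 17 partner genes, beside 10.8% of all genes. They lay above in 1, 0 and 1 genes of these lists, beside 23.6% of all genes. In the other lists 1 to 5 genes lay below and 3 to 7 above. The fit of the 6 arrays of E14 called 5.22% of all genes higher and 2.29% lower. Of the 23 genes of the LIS1 complex and dynein it called the dynein regulator gene Nudc higher (0.17) and the dynactin gene Dctn6 lower (-0.38). Of the 17 partner genes it called the glutamate receptor gene Grin2b lower (-0.50). Of 25 migration genes 2 were called higher and 2 lower. Of 29 guidance genes the receptor genes Robo2 (-0.88) and Plxnc1 (-0.21) were called lower. At P0 that fit called no member of these 6 lists.

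**Figure D4:**
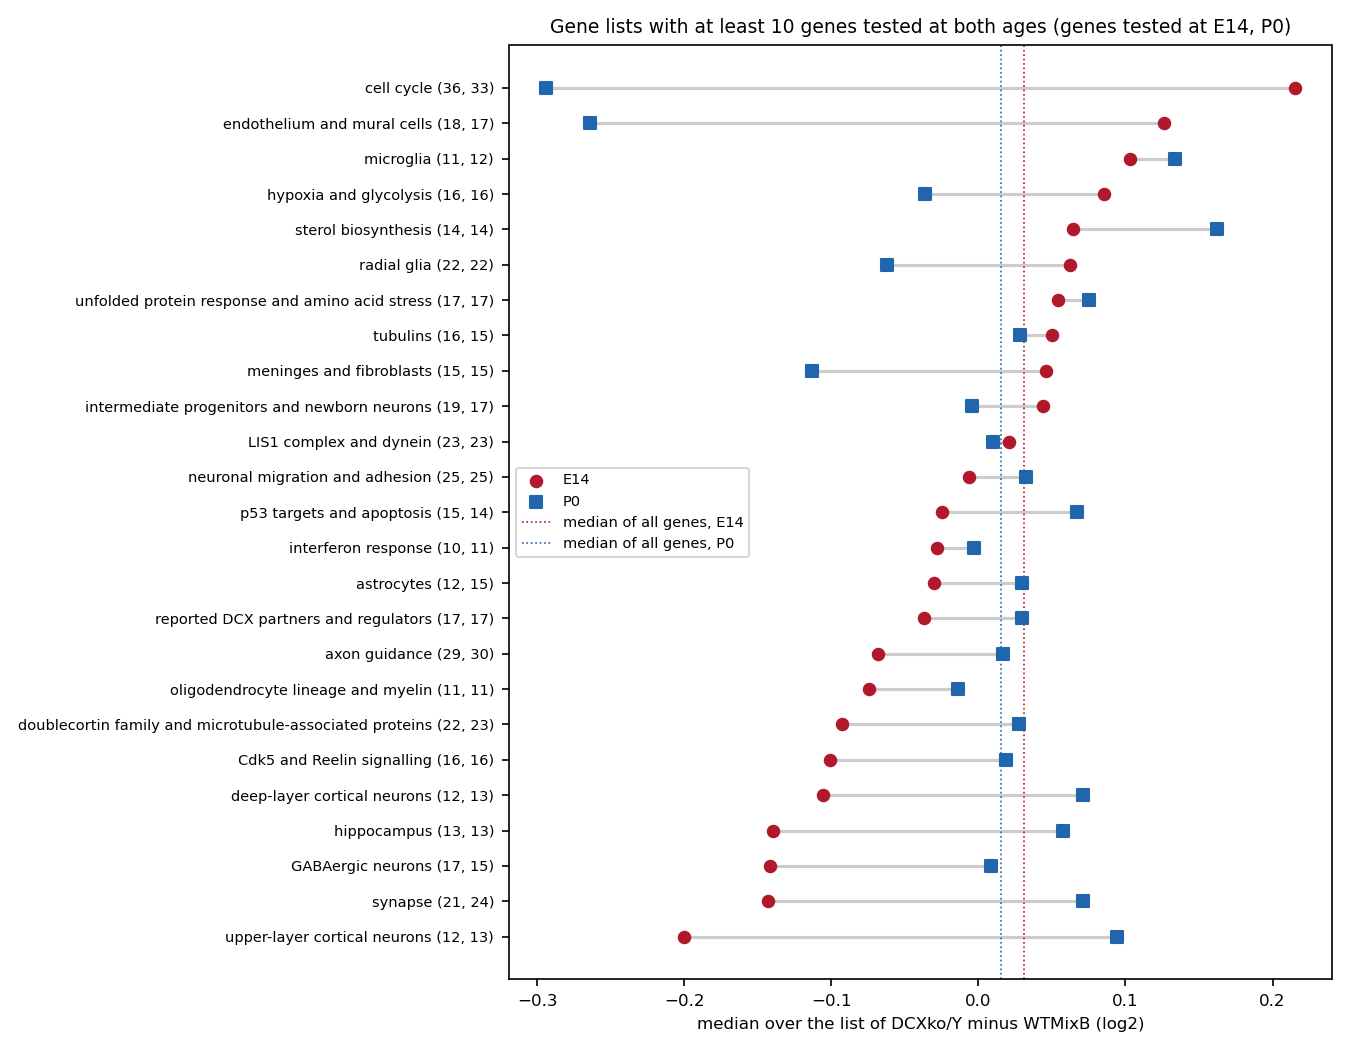
Median DCXko/Y minus WTMixB difference (log2) of each gene list with at least 10 genes tested at both ages, at E14 (red circles) and P0 (blue squares), with the numbers of genes tested in brackets and the medians of all genes as dotted lines. The cell cycle list is at the right end at E14 (0.22) and at the left end at P0 (-0.29), and the lists of synapse, upper-layer, deep-layer, hippocampal and GABAergic genes lie to the left of the median of all genes at E14 (-0.20 to -0.11).

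The effects at E14 and at P0 were then set against each other over the 11237 genes tested at both ages. The 2 effects share no array, but they share probe sets and any strain difference between the Dcx colony and WTMixB. Dcx was the only gene called at both ages, which is 8.33% of the E14 list and 25% of the P0 list. Over all genes the Pearson correlation of the effects was 0.13, over the same genes without Dcx it was -0.04, and without Dcx and the sex-linked genes 0.00, with a Spearman correlation of -0.07. The value with Dcx included thus rested on that gene. The effects had the same sign in 47.5% of the genes.

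Among the called genes most signs were the same at both ages. Of the 11 E14 calls tested at P0, Dcx included, 10 had the same sign there. H2-D1 differed by 0.36 ± 0.24 at P0, H2-K1 by 0.56 ± 0.21, Rps6 by 0.60 ± 0.20, Rpgrip1 by 0.41 ± 0.19, Rabl2 by 0.28 ± 0.14 and Pisd-ps3 by -0.41 ± 0.27. Dynlt1f differed by -0.37 ± 0.19, Vps52 by -0.51 ± 0.37 and Zfp994 by -0.07 ± 0.23. Vps52 was at 7.44, 7.35 and 5.92 in DCXko/Y at P0, against 7.38 to 7.47 in WTMixB, so its difference rested on 1 array. Glo1 was the exception at -0.07 ± 0.16, and none but Dcx passed at P0 by the probe set used. A second Rps6 probe set differed by 0.59 ± 0.18 at E14 and 1.13 ± 0.22 at P0. It passed at P0 in a fit of every probe set (adjusted p = 0.0470 by limma). Its WTMixB means, 4.10 and 4.14, lay below the level for testing. Of the 3 P0 calls tested at E14, 2 had the same sign there, Dcx and Cldn5 (-0.11 ± 0.27), while Palm2 differed by -0.07 ± 0.34. The genes of smallest p were also taken alone, with Dcx and sex-linked genes left out. For the 100 of smallest p at E14 the Pearson correlation with their P0 effect was 0.48 and the Spearman correlation 0.28. Of these 54% had equal sign. For the 100 of smallest p at P0 the correlations were 0.21 and 0.17, with 51% of equal sign.

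**Figure D5:**
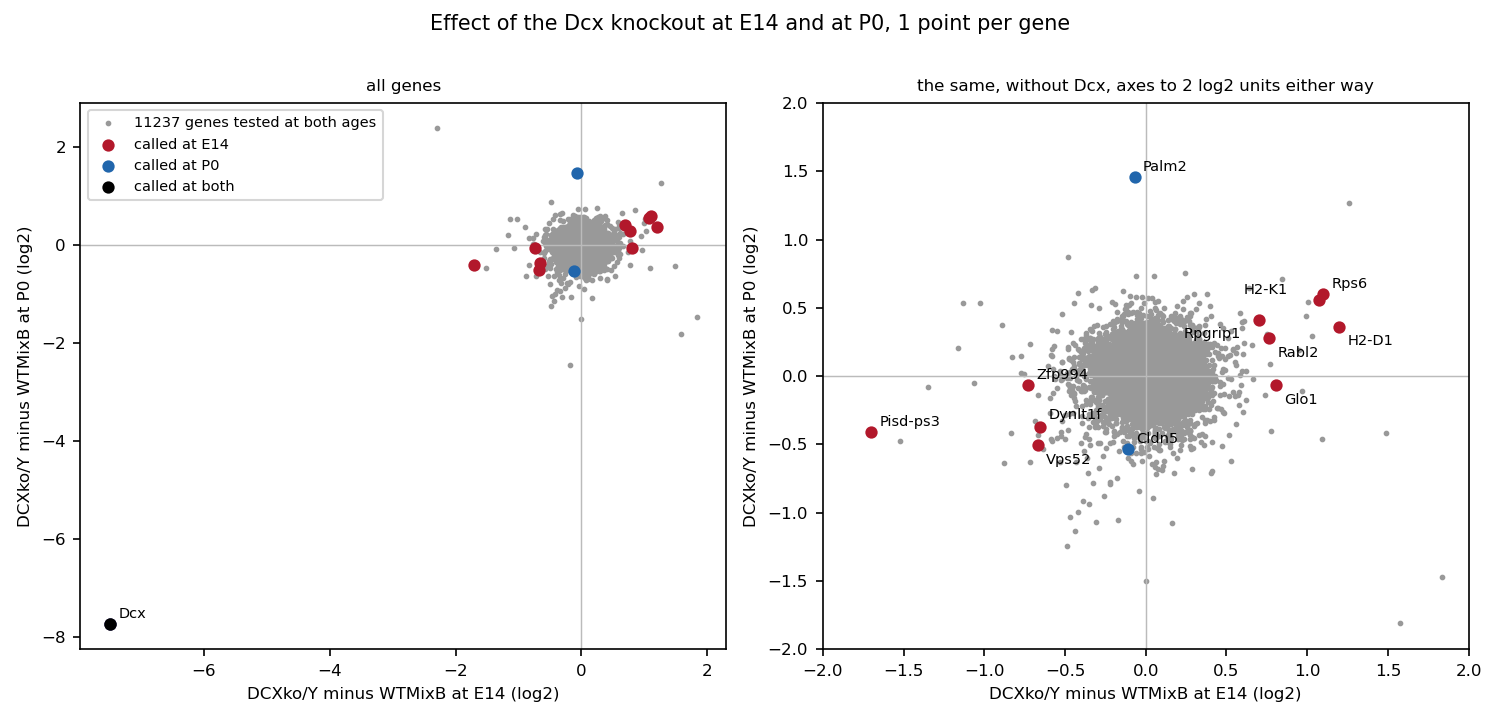
Difference DCXko/Y minus WTMixB (log2) at P0 against that at E14, 1 point per gene for 11237 genes, with genes called at E14 in red, at P0 in blue and at both in black. The left panel shows Dcx alone at -7.49 and -7.73, and the right panel, with axes to 2 log2 units either way, shows a cloud of genes with no clear slope, the E14 calls other than Dcx that were tested at both ages at P0 values between -0.51 (Vps52) and 0.60 (Rps6), and Palm2 near the vertical axis.

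For scale, the E14 effects of DCXko/Y, nudelko/+ and nudelcko/ko against WTMixB were each correlated with the P0 effects of the same 3 groups, without Dcx, Ndel1 and sex-linked genes. The 9 values ran between -0.24 and 0.10. The correlation of DCXko/Y with itself at the other age (0.00) lay within the range given by different genotypes, such as -0.19 for DCXko/Y at E14 with nudelko/+ at P0 and 0.10 for nudelko/+ at E14 with DCXko/Y at P0.

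The difference between the 2 effects was tested for each gene as an interaction with age, and 1 of 12287 genes passed (0.00814%). This was Rmst, whose effect was 3.03 ± 0.46 log2 units higher at P0 than at E14 (adjusted p = 0.000775). At P0 Rmst was at 4.28, 4.01 and 4.32 in DCXko/Y and at 4.37, 4.12 and 4.45 in WTMixB. Both groups lay below the level for testing, near the floor of the platform, and did not stand apart. The next genes in order of p were not called. Gfm2, a mitochondrial translation factor, was higher in DCXko/Y at E14 by 0.42 ± 0.09 and lower at P0 by -0.30 ± 0.12, and Ptov1 differed by 0.16 ± 0.13 at E14 and -1.07 ± 0.21 at P0, with its second probe set at -0.10 ± 0.14 and 0.25 ± 0.11. For Gfm2 the WTMixB mean at E14 (7.29) was the lowest of the groups, with the others at 7.53 to 7.72. The adjusted p of the interaction was 0.130 for Gfm2, Ptov1, Rbmx, Dcun1d1 and Efcab7. It was 0.153 for Snhg10, Lrrc73 and Slc25a15, and 0.185 for the serine synthesis gene Psat1.

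The effects were also set beside the change that normal development brings between the ages, taken from WTMixA, P0 minus E14, which shares no array with either effect. This comparison was added after the list results were seen. At E14 the DCXko/Y effect correlated with the developmental change at -0.31 over 11738 genes, and at P0 at 0.32 over 11774 genes. The tenth of the genes most reduced between E14 and P0 in WTMixA had a median effect of 0.11 at E14 and -0.08 at P0, and the tenth most increased had -0.08 and 0.10, beside medians over all these genes of 0.03 and 0.02. With each array left out in turn the correlation ran between -0.35 and -0.22 at E14 and between 0.26 and 0.35 at P0. The same correlation was 0.38 and 0.17 in nudelko/+ and 0.00 and -0.16 in nudelcko/ko against the same WTMixB arrays. At E14 nudelko/+ thus had a larger value of opposite sign, and at P0 the value of DCXko/Y was the largest of the 3. The part of a difference in developmental stage between the groups was not tested.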

How the data were processed

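The deposited values are log2 expression of 45101 Affymetrix probe sets on 78 arrays, made by the authors with RMA, per the submitters' processing notes, which name no version. RMA normalizes arrays to a common distribution, so a shift of most genes together would be lost. The number of arrays limits the precision. The labels call arrays biological replicates, and p-values rest on the spread between arrays within all groups that entered a fit.

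Each of 18194 genes was represented by the probe set, among those naming 1 gene, of highest mean. Genes whose highest group mean reached 5.253 were tested with limma 3.58.1 in R 4.3.3 (lmFit, eBayes with trend). All groups of an age entered the fit, 24 arrays at E14 and 30 at P0, and all of them the interaction. Benjamini-Hochberg adjusted p-values under 0.05 were called. The pipeline was tested on simulated data in which each gene had the same spread in every group. Those data do not cover the unequal spreads of the real groups.

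Genes named are called genes whose arrays do not overlap, the 12 largest in each direction, filled up to 10 by smallest p, plus the Dcx family and the other mutated genes. List members and all other genes named were picked after their values were seen. Comparison and 35 gene lists were chosen with earlier results of these data known. Replicate numbers did not pair the samples: deviations of same-numbered arrays correlated at -0.10 to 0.03. Alternatives changed the filter, normalization, control group, arrays fitted, variance prior and probe set rule, added a term for Xist or a replicate block, or left out each array.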

Additional observations from a re-analysis of the deposited data

Results flagged for a closer look

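Rmst was singled out because its DCXko/Y effect differed between the ages by the interaction test, by 3.027 log2 units. At E14 the DCXko/Y arrays lay between 4.72 and 4.99 and the WTMixB arrays between 7.88 and 8.12, whereas at P0 all 6 arrays lay between 4.01 and 4.45. At E14 nudelcko/ko differed from the same WTMixB arrays by -3.10, and these comparisons share their controls. Against WTMixA the E14 difference was -0.69 and was not called. The second Rmst probe set differed from WTMixB by -0.36 ± 0.33 at E14.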

How the results depend on the processing

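At E14 the count of 12 calls became 882 with only the DCXko/Y and WTMixB arrays, 1219 with the 4 groups DCXko/Y, nudelko/+, nudelcko/ko and WTMixB, 31 against nudelko/+, 23 with every probe set and 5 against both wild types. At P0 the 4 calls became 3529 against WTMixA, 782 against nudelko/+, 16 with the 4 groups and 2 with no trend in the variance prior. The single interaction call became 1362 against WTMixA, 442 with the 4 groups, 63 against nudelko/+, 24 with the 6 arrays of each age, 6 with a term for Xist, 3 with no filter and 0 against both wild types. The correlation of the effects without Dcx, -0.036, became 0.173 against WTMixA, 0.183 against nudelko/+, 0.0646 against both, 0.0103 with the Xist term and 0.0901 with every probe set. With each array left out, the counts ran from 6 to 11 at E14, from 1 to 20 at P0 and from 1 to 8 for the interaction, and the correlation from -0.106 to 0.0269. The 20 came without P0 DCXko/Y replicate 1. Among genes called in either fit, the direction turned for Glo1 at E14 (-0.00551) and Zfp994 at E14 (0.0838) and Pafah1b1 at P0 (-0.52) against WTMixA, and for Rpgrip1 at E14 (-2.77) and Vwf at P0 (0.0197) against nudelko/+. Uncalled differences that changed sign against WTMixA include Dclk1 and Ywhae at E14 and Ndel1 and Dclk3 at P0. The cause was not tested.

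With the replicate number as a block, 11 genes were called at E14, 5 at P0 and 1 in the interaction, and the correlation was -0.036. The numbers are not known to pair the samples. The comparisons against nudelko/+, the 4-group fit, the 6-array fits without each array, the lists without each array and the relation to development were chosen after seeing the data.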
